A study of Chlorocebus sabaeus with 10 samples.

Results

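The miR-106b-25 cluster is a group of 3 miRNA hairpins, mir-106b, mir-93 and mir-25, that lie together in an intron of MCM7, a gene for a subunit of the DNA replication helicase. Its 6 mature miRNAs, 1 from each arm of each hairpin, were selected by name among the 2588 mature names of the deposited table, and all 6 were found. The table gives them human names, hsa-miR-106b-5p, hsa-miR-106b-3p, hsa-miR-93-5p, hsa-miR-93-3p, hsa-miR-25-3p and hsa-miR-25-5p, and the prefix is left out hereafter where no confusion is possible. The vervet gene annotation used here lists MCM7 as a protein-coding gene between AP4M1 and COPS6. It lists 0 miRNA genes, so the position of the hairpins inside vervet MCM7 was not examined. No mature sequence was at hand in the sources used here, and none is printed.

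Liver biopsies of 10 female vervet monkeys (Chlorocebus sabaeus) were profiled by small RNA sequencing, with 5 animals fed a high fructose (HFr) diet and 5 animals fed chow. The study describes the HFr exposure as short-term. Both groups were kept on chow until the diets began, and the tissue was flash-frozen liver. The library columns of the table match no sample label, so no library was assigned to a diet, HFr and chow were not compared, and every value below is the pooled read count over all libraries. A pooled count has no replicate and no SD between animals, it weighs deeper libraries more, and each interval covers counting error only.

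The cluster is best known for growth control. A single primary transcript is cut into the 3 hairpins, and each hairpin is then cut into a duplex from which usually 1 arm, the leading arm, is loaded into Argonaute while the other is mostly degraded. In human and mouse cells the cluster is induced with MCM7 by E2F factors. miR-106b-5p and miR-93-5p are known to repress the cell cycle inhibitor CDKN1A, and miR-25-3p the pro-apoptotic gene BCL2L11. The cluster is also known to dampen TGF-beta signaling and to be elevated in human liver cancer. The mature miRNAs fall into different target groups, because miR-106b-5p and miR-93-5p share the seed (bases 2 to 8, which pair with the target) of miR-17-5p, whereas miR-25-3p shares the seed of miR-92a-3p.

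All 3 hairpins were represented in the vervet livers, and their leading arms were among the 50 most abundant of all miRNA names. hsa-miR-25-3p had 6242 reads (exact Poisson interval 6088 to 6399) and ranked 33 of 2588 names. hsa-miR-93-5p had 6078 reads (interval 5926 to 6233) and ranked 34, next to it. hsa-miR-106b-5p had 2615 reads (interval 2516 to 2717) and ranked 50. The first and last hairpin products of the transcript thus differed in reads, while miR-25-3p and miR-93-5p lay side by side.

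The less abundant arms spread over a wider range than the leading ones. hsa-miR-106b-3p had 286 reads (interval 253.8 to 321.1) and ranked 144. hsa-miR-93-3p had 52 reads (interval 38.8 to 68.2) and ranked 251. hsa-miR-25-5p rested on 4 reads (interval 1.09 to 10.2) and ranked 466. The intervals of the 3 minor arms did not overlap, in the order mir-106b, mir-93, mir-25, which was not the order of the leading arms.

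**Figure D1:**
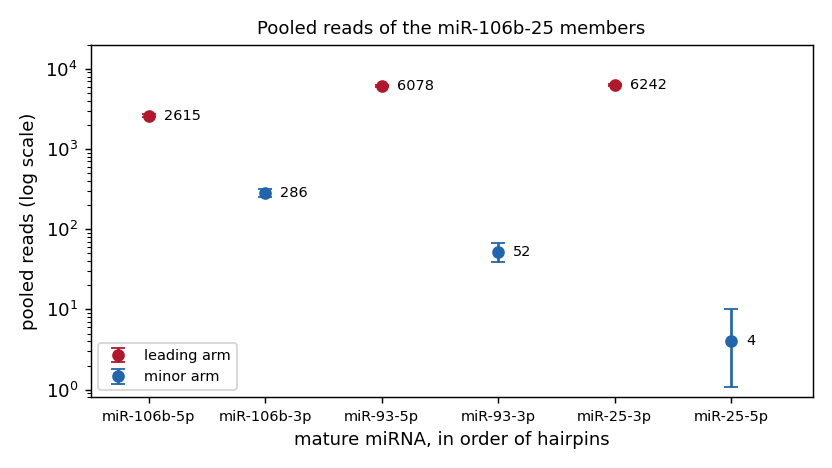
Pooled reads of the 6 mature miRNAs of the cluster on a log scale, with the leading arms in red, the minor arms in blue and bars for the 95% exact Poisson interval. The leading arms sit between 2615 and 6242 reads, whereas the minor arms fall over the hairpins to 286, 52 and 4 reads.

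Together the 6 members held 15277 of 2043164 reads, or 0.748% of the pool (95% Wilson interval 0.736 to 0.760%). The pool counts each mature name once, by its most abundant row. Each member stood on 1 row of the table, so its own count did not depend on how miRNAs with several precursors were treated. Reads were found for 6 of 6 members, against 26.3% of all names in the table. At least 100 reads were found for 4 of 6 members, against 7.88% of all names, and at least 1000 reads for 3 of 6, against 3.32%. The median member had 1450.5 reads and the median of all names was 0, since most names of the table were not detected. By share of the pool, miR-25-3p held 0.306%, miR-93-5p 0.297%, miR-106b-5p 0.128%, miR-106b-3p 0.0140% and miR-93-3p 0.00255%.

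Cluster neighbors were compared by ratios of pooled reads, with intervals from the exact binomial interval. miR-25-3p had 1.03 times the reads of miR-93-5p (interval 0.991 to 1.06), a difference within counting error. miR-25-3p exceeded miR-106b-5p by 2.39-fold (interval 2.28 to 2.50), and miR-93-5p exceeded miR-106b-5p by 2.32-fold (interval 2.22 to 2.43). The lower level of miR-106b-5p was therefore beyond counting error relative to both neighbors. With both arms added, mir-25 gave 40.9% of the reads of the cluster (interval 40.1 to 41.7%), mir-93 gave 40.1% (interval 39.4 to 40.9%) and mir-106b 19.0% (interval 18.4 to 19.6%). Adapter ligation in small RNA libraries differs between miRNAs, so these ratios describe reads and not molecules.

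The hairpins differed in which arm led and in how strictly it did so. The 5p arm led in mir-106b and mir-93 and the 3p arm in mir-25. The table names both arms of 179 hairpins that reached 100 reads, and among these the 5p arm led in 55.3% and the 3p arm in 43.0%, by Wilson intervals that did not include 50%. In mir-106b the 5p arm held 90.1% of 2901 reads (interval 89.0 to 91.2%), so that 9.86% came from the 3p arm. In mir-93 the 5p arm held 99.2% of 6130 reads (interval 98.9 to 99.4%). In mir-25 the 3p arm held 99.9% of 6246 reads (interval 99.84 to 99.98%), and the 5p arm 0.0640% (interval 0.0249 to 0.165%).

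Expressed as ratios, miR-106b-5p exceeded miR-106b-3p by 9.14-fold (interval 8.09 to 10.4). miR-93-5p exceeded miR-93-3p by 117-fold (interval 89.0 to 157). miR-25-3p had 1560.5 times the reads of miR-25-5p, with a counting interval of 609 to 5729 because the minor arm had 4 reads. The minor-arm share thus differed between each hairpin and the next by more than counting error. The minor arms together gave 342 reads, or 2.24% of the cluster (interval 2.02 to 2.49%), and miR-106b-3p contributed 83.6% of these (interval 79.3 to 87.2%).

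Against the other hairpins, mir-106b lay toward the even end of the range, mir-93 near the middle and mir-25 toward the strict end. The median minor-arm share over the 179 hairpins was 0.893%, with quartiles of 0.182% and 8.02%. Among the 130 of these with arms on 1 precursor, as in the 3 cluster hairpins, the median was 1.69%, with quartiles of 0.230% and 9.83%. Of the 176 hairpins outside the cluster, 37 had a larger minor-arm share than mir-106b (21.0%), 90 a larger share than mir-93 (51.1%) and 145 a larger share than mir-25 (82.4%). Among hairpins with at least 1000 reads, 11.5% had a larger minor-arm share than mir-106b. Among those with at least 10 reads it was 25.7%. A major arm of at least 90% was found in 3 of 3 cluster hairpins and in 79.3% of all hairpins, and one of at least 99% in mir-93 and mir-25 and in 53.1% of all. Among the 90 hairpins with at least 1000 reads, the nearest to mir-106b in 5p share were mir-411 (89.0%) and let-7d (91.7%). The nearest to mir-93 were mir-194-2 (99.2%) and mir-181a-2 (99.5%), and the nearest to mir-25 were mir-143 (0.0661%) and mir-152 (0.0669%). These proportions describe the hairpins of the pool. Some hairpins, among them mir-194-2 and mir-181a-2, share a mature miRNA, so they are not independent. The leading arm of such a hairpin can hold reads of another, and its minor-arm share can be too low.

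**Figure D2:**
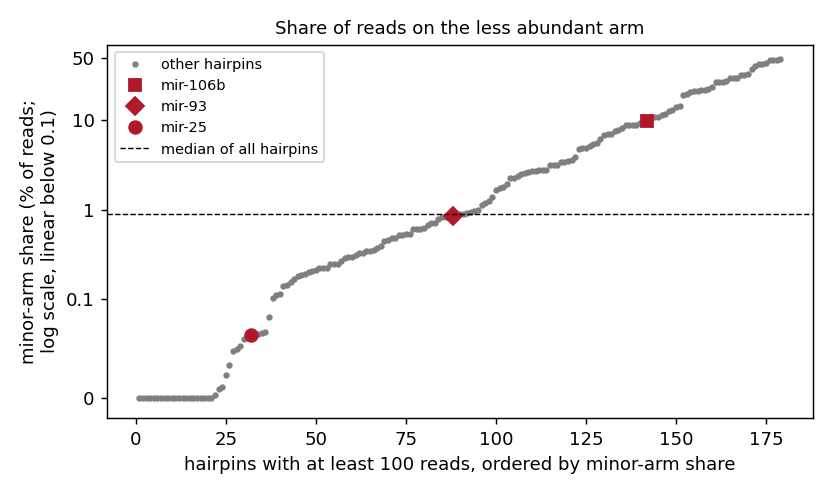
Share of reads on the less abundant arm in percent for each of the 179 hairpins with at least 100 reads, ordered from low to high, on a log scale that is linear below 0.1; the dashed line is the median, 0.893%. The hairpins mir-25 (0.0640%), mir-93 (0.848%) and mir-106b (9.86%) lie far apart along the curve.

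The cluster has paralogs in the vertebrate genome, the miR-17-92 cluster, which is known as an oncogenic cluster with roles in B cell and lung development, and the miR-106a-363 cluster of the X chromosome. They were used as the most similar comparisons. In the 3 hairpins of miR-106b-25 the highest total, mir-25, exceeded the lowest, mir-106b, by 2.15-fold (interval 2.06 to 2.25). The 6 hairpins of miR-17-92 spread over 39.1-fold (interval 33.7 to 45.6), between mir-92a-1 with 6954 reads and mir-18a with 178 reads. In miR-106a-363, mir-92a-2 had 6530 reads and mir-18b 1 read, a ratio of 6530 with a counting interval of 1172 to 257960. However, miR-92a-3p and miR-19b-3p come from hairpins of both paralogs, and their reads cannot be divided between them. Without them, the spread was 29.8-fold in miR-17-92 (interval 25.7 to 34.8) and 24.0-fold in miR-106a-363 (interval 3.91 to 987). The lowest hairpins, mir-18a and mir-18b, have no counterpart in miR-106b-25. The miR-17-92 counterparts of mir-106b, mir-93 and mir-25 are mir-17 with 2213 reads, mir-20a with 5303 and mir-92a-1 with 6954. Among these, mir-92a-1 exceeded mir-17 by 3.14-fold (interval 2.995 to 3.298), nearer to the 2.15-fold of miR-106b-25. The clusters differ in their number of hairpins, so the spreads are given as a description.

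The summed reads of the clusters also depended on the shared names. miR-106b-25 had 15277 reads, against 16734 reads for the 12 mature names of miR-17-92, a ratio of 0.913 (interval 0.893 to 0.933). When miR-19b-3p and miR-92a-3p were left out of miR-17-92, its sum was 8032 reads, and the miR-106b-25 sum was 1.90 times as high (interval 1.85 to 1.95). These sets are unlike, since miR-25-3p, the counterpart of miR-92a-3p by seed, stayed in the miR-106b-25 sum with 6242 reads. The names that only miR-106a-363 gives had 41 reads in total, and miR-106b-25 exceeded them by 373-fold (interval 275 to 519). There too miR-25-3p was kept while miR-92a-3p was left out. Of the 12 names of miR-106a-363, 8 had reads and 4 had 0 reads, whereas 26.3% of all names in the table had reads. In the last against the first hairpin of the transcript, mir-25 exceeded mir-106b by 2.15-fold, and mir-92a-1 exceeded mir-17 by 3.14-fold (interval 2.995 to 3.298). Of these ratios, the one for mir-25 rests on no shared rows.

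**Figure D3:**
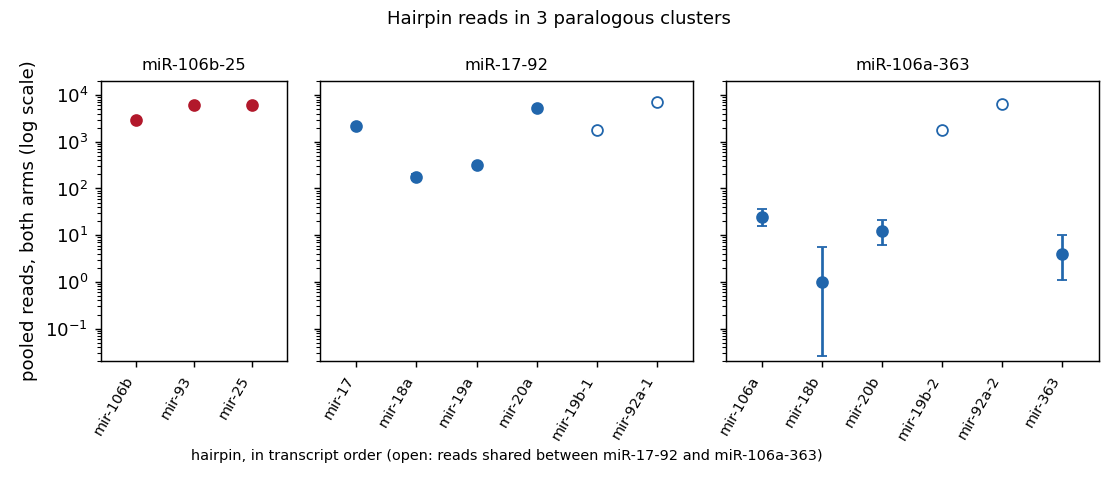
Pooled reads of each hairpin, both arms added, on a log scale for the miR-106b-25, miR-17-92 and miR-106a-363 clusters in transcript order, with bars for the 95% exact Poisson interval; open circles are mir-19b and mir-92a hairpins, whose mature reads the paralogs share. The miR-106b-25 hairpins sit between 2901 and 6246 reads, and their miR-17-92 counterparts mir-17, mir-20a and mir-92a-1 between 2213 and 6954. The hairpins mir-18a with 178 reads and mir-18b with 1 read have no counterpart in miR-106b-25.

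Paralogous hairpins also allowed a comparison of arms. miR-106b-3p had 286 reads, 5.72 times the 50 reads of miR-17-3p (interval 4.22 to 7.89), while miR-106b-5p had 1.21 times the 2163 reads of miR-17-5p (interval 1.14 to 1.28). The minor-arm share was accordingly 9.86% in mir-106b and 2.26% in mir-17 (interval 1.72 to 2.97%), intervals that did not overlap. miR-93-3p had 2.48 times the 21 reads of miR-20a-3p (interval 1.47 to 4.33), with minor-arm shares of 0.848% in mir-93 (interval 0.648 to 1.11%) and 0.396% in mir-20a (interval 0.259 to 0.605%). For miR-25-5p with 4 reads and miR-92a-1-5p with 14 reads the ratio was 0.286 (interval 0.0685 to 0.910). The minor-arm share was 0.0640% in mir-25 and 0.201% in mir-92a-1 (interval 0.120 to 0.338%), intervals that overlapped. The mir-92a-1 value can be too low, because its leading arm holds reads of mir-92a-2 as well. In mir-18a, which has no counterpart in miR-106b-25, the minor arm held 6.18% of 178 reads (interval 3.49 to 10.7%). In mir-19a the 5p arm had 0 of 319 reads, with a Wilson interval for its share that reached 1.19%.

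Within the miR-17 seed family, which is named for miR-17-5p and whose members are expected to recognize largely the same targets, the cluster supplied the larger part of the reads. The family here is the 6 listed names, and other names with the same seed were not searched for. miR-93-5p and miR-106b-5p together had 8693 of 16173 family reads, or 53.8% (interval 53.0 to 54.5%). miR-93-5p was the most abundant of the 6 listed members with 37.6% (interval 36.8 to 38.3%), followed by miR-20a-5p with 5282 reads or 32.7% (interval 31.9 to 33.4%). miR-93-5p exceeded miR-20a-5p by 1.15-fold (interval 1.11 to 1.19). miR-106b-5p held 16.2% (interval 15.6 to 16.7%) and miR-17-5p 13.4% (interval 12.9 to 13.9%). The X-linked members were rare, with 24 reads of miR-106a-5p and 11 reads of miR-20b-5p. miR-106b-5p exceeded miR-106a-5p by 109-fold (interval 73.1 to 170), and miR-93-5p exceeded miR-20b-5p by 553-fold (interval 309 to 1107). Members of this family differ by few bases, and a read can be counted toward more than 1 of them.

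In the miR-25 seed family, the cluster and its paralogs contributed similar numbers of reads. miR-25-3p held 6242 of 13489 family reads, or 46.3% (interval 45.4 to 47.1%), and miR-92a-3p held 51.4% (interval 50.6 to 52.3%). miR-25-3p had 0.899 times the reads of miR-92a-3p (interval 0.869 to 0.931). miR-92a-3p stood on 2 rows, and the order of the members did not change with the row used for it, but adding both rows lowered the share of miR-25-3p to 31.2% (interval 30.5 to 31.8%). These rows held 6940 and 6530 reads, and adding them can count the same read more than once. The other members were far below. miR-32-5p had 293 reads, and miR-25-3p exceeded it by 21.3-fold (interval 18.9 to 24.0). miR-92b-3p had 11 reads, miR-363-3p 3 reads and miR-367-3p, best known from pluripotent cells, 0 reads. With 3 reads as the limit for a count of 0, its share of the pool could be up to 0.000147%.

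**Figure D4:**
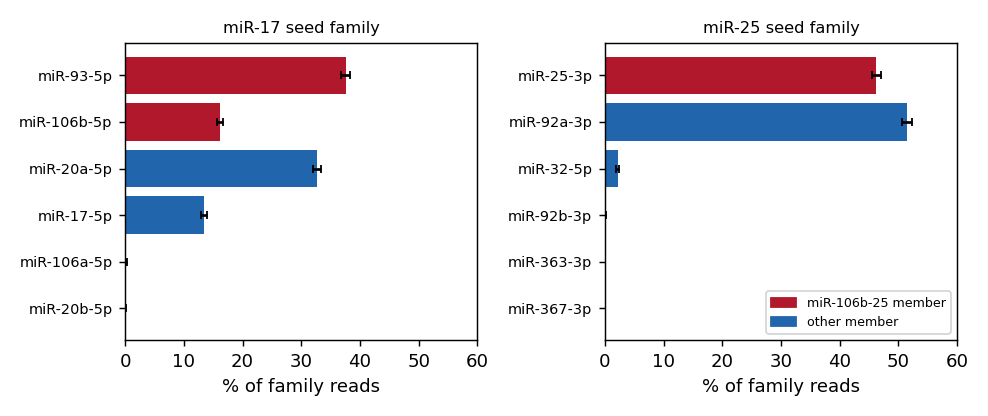
Share of the pooled reads of the miR-17 seed family (left) and the miR-25 seed family (right) held by each member in percent, with members of the miR-106b-25 cluster in red, other members in blue and bars for the 95% Wilson interval. miR-93-5p (37.6%) and miR-106b-5p (16.2%) together pass 50%, whereas miR-25-3p (46.3%) stands below miR-92a-3p (51.4%).

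The miRNAs nearest in level were taken as those next in rank. miR-25-3p lay between let-7i-5p with 6280 reads and miR-93-5p, and both differences were within counting error. miR-93-5p was followed by miR-152-3p with 5978 reads, also within counting error (ratio 1.02, interval 0.981 to 1.05), and by let-7d-5p with 5815 reads, from which it differed beyond counting error (ratio 1.05, interval 1.01 to 1.08). miR-27b-3p with 6527 reads lay above miR-25-3p beyond counting error, since the ratio of miR-25-3p to it was 0.956 (interval 0.924 to 0.990). miR-106b-5p stood apart from both neighbors in rank, with 0.854 times the 3062 reads of miR-425-5p (interval 0.810 to 0.900) and 1.11 times the 2366 reads of miR-451a (interval 1.05 to 1.17). The next names were miR-10a-5p with 3065 reads above and miR-29c-3p with 2365 reads below. Likeness here is in pooled level only, because likeness over animals needs library values.

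The tissue label was checked against miRNAs of liver cell types. The miR-106b-25 cluster held 0.748% of the pool, against 49.7% for the hepatocyte markers miR-122-5p, miR-148a-3p, miR-192-5p and miR-194-5p, of which miR-122-5p alone held 45.2% of the pool. The fibroblast and stellate markers held 3.21%, the endothelial markers 1.103% and the biliary markers 0.0868%, each with reads for all of its names. The fibroblast and stellate sum came mostly from miR-143-3p with 42313 reads and miR-199a-3p with 22258. The others on that list were far lower, miR-214-3p with 711 reads and miR-145-5p with 280. miRNAs of the cluster are also known from blood and dividing cells. The 4 red blood cell markers held 0.564%, with miR-486-5p at 8488 reads and miR-144-3p at 13 reads, and the 5 leukocyte markers held 0.172%, between 348 and 1242 reads each. All 4 red blood cell and all 5 leukocyte markers had reads. For comparison with these and the lists above, 26.3% of all names in the table had at least 1 read. The part of these cells in the reads of the cluster was not tested, and in bulk tissue fewer cells of a type and less RNA per cell cannot be told apart.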

How the data were processed

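Per the labels, total RNA came from frozen liver (Zymo Direct-zol) and was turned into libraries by the TruSeq small RNA protocol of Illumina. The study's methods name a GAIIx sequencer and miRDeep2, and Bowtie and cutadapt 1.10 are listed in the submitters' processing notes. Neither the genome build nor the miRNA release is given in the sources used here. The authors deposited raw counts and normalized values in 1 table of 2948 rows with human miRNA names, so vervet miRNAs with other bases than the human ones may be missed in part. The column used was the total count per row. The other 20 columns of library values match no sample and were not used, so the diet tests and all fits that need libraries were not run. The depth per library is therefore not given.

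For each of the 2588 mature names the most abundant row was used, for 2043164 reads in all. Hairpin arms were taken as the highest row of each arm. Counts have 95% exact Poisson intervals, shares 95% Wilson intervals and ratios exact binomial intervals, and 3 reads were used as the limit for a count of 0. Reads carry no stated molecular identifiers. The intervals were tested on counts simulated from the sampling model that they assume, for names with at least 10 reads and a single pair of levels for the ratio. That test does not cover counts as low as the 4 reads of miR-25-5p, or reads shared between rows. The miRNAs named are the 6 members, the paralogous clusters and seed families, the names next in rank, the hairpins nearest in arm share and cell markers. Seed families follow textbook membership, and other names with the same seed were not searched for. Members and lists were chosen with earlier results of these data known. Alternatives were other denominators, intervals, read minimums, precursor rows and the treatment of shared hairpins. Computations used Python 3.11.15, pandas 2.3.3 and scipy 1.17.1.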

Additional observations from a re-analysis of the deposited data

How the results depend on the processing

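The counts of the members cannot change with the row rule, since each stands on 1 row, but shares did. Adding all precursor rows to the denominator lowered the share of the cluster to 0.572%, against 0.748% with 1 row per name, and the share of miR-25-3p in its seed family to 31.2%, against 46.3%. However, rows of the same name can repeat reads, as for let-7a-5p with 124232, 124454 and 124200 reads on its rows. Adding rows can thus count a read more than once, which lowers these shares. The 53.8% of the miR-17 seed family cannot change, since each of its names stands on 1 row. The share of hairpins with a larger minor-arm share than mir-106b was 11.5% among those with at least 1000 reads, against 21.0%. It was 25.7% with at least 10 reads and 25.2% with arms on 1 precursor. For mir-93 the share was 39.1% with at least 1000 reads, against 51.1%, and so moved to the other side of 50%. With at least 10 reads it was 52.2%, and with arms on 1 precursor 58.3%. For mir-25 the share was 79.3% with at least 1000 reads, 72.1% with at least 10 reads and 87.4% with arms on 1 precursor, against 82.4%. The spread over hairpins was 2.39-fold in miR-106b-25 with leading arms only, against 2.15-fold. Without the shared hairpins it was 29.8-fold in miR-17-92, against 39.1-fold, and 24.0-fold in miR-106a-363, against 6530-fold. In an alternative chosen after seeing the data, leaving miR-19b-3p and miR-92a-3p out of the miR-17-92 sum turned the ratio of miR-106b-25 to miR-17-92 to 1.90, against 0.913 with all names. That alternative compares unlike sets, because miR-25-3p stayed in the miR-106b-25 sum. These shifts follow from the rows, hairpins or arms that each alternative adds or leaves out. No paired analysis was possible because no library could be tied to an animal, although the labels repeat replicate numbers in both diets. Likewise no library was left out in turn, and size factors and a low-count filter were not run. Depth limits miR-25-5p most, since its 4 reads allow 1.09 to 10.2.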

Other observations

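The hairpin mir-32, which is not part of any cluster described here, carries the miR-25 seed on its 5p arm. It had 293 reads of miR-32-5p and 110 reads of miR-32-3p, a 5p share of 72.7% (interval 68.2 to 76.8%), so that it was nearer to balance than mir-106b, mir-93 or mir-25. With both arms added, mir-25 had 6246 reads, against 403 reads of mir-32. The seed thus lay on the 3p arm of the abundant hairpin and on the 5p arm of the rare one.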
